A study of Bos taurus with 16 samples.

Results

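The integrated stress response lets a cell change its protein synthesis when amino acids run short, unfolded protein builds up, mitochondria fail or double-stranded RNA appears. A kinase for each of these stresses phosphorylates the initiation factor eIF2, which slows general translation and favours translation of the transcription factor ATF4. ATF4 then switches on genes for amino acid synthesis and uptake, together with genes that feed back on the response. Embryos use the pathway as other cells do, so it can answer to culture conditions, and because ATF4 is controlled in large part at translation, its mRNA is an incomplete guide to its activity.

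The 9 genes described here were ATF4 itself, the transcription factors ATF3 and DDIT3 (also called CHOP), the pseudokinase TRIB3, the amino acid synthesis enzymes ASNS, PHGDH and PSAT1, the glutathione-degrading enzyme CHAC1 and the stress sensor SESN2. They were chosen by name, as a list, with LY differences of these libraries already known. The list was found whole in every table: 9 of 38959 genes in the table of LY10 and DMSO blastocysts, 9 of 37429 in that of the second blastocyst experiment and 9 of 28303 in that of the stem cells. All 9 had a mean of at least 10 normalized counts in each table. Because the choice was made with these contrasts in view, the differences of the 9 genes are given as a description, without p-values. Calls of members by the threshold used for all genes are counted below, and nothing is supported with them or with the differences.

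The study asked what LY2955303 (LY), an inhibitor of the retinoic acid receptor gamma, does to bovine embryos made by in vitro fertilization and to bovine embryonic stem cells (bESCs). The 16 libraries fell into 7 groups, all of wild-type genotype and all labelled batch 1. In the first experiment, 3 blastocysts were cultured with 10 µM LY (LY10) and 3 with the solvent alone (DMSO), both in a medium that also held LIF, FGF2 and IGF1. Treatment began once the embryos had cleaved, at the 2-cell stage by the paper's account, as in the cell2_LY group below. In the second, 2 blastocysts had LY from the 2-cell stage (cell2_LY), 2 had LY from the 16-cell stage (cell16_LY) and 2 were solvent controls (LY_DMSO). The labels give no LY concentration for these groups, and the methods give no separate medium for them. Each of these libraries came from 1 whole blastocyst. The other 4 were bESCs on mouse fibroblast feeders in TIFX medium, which holds LIF, forskolin and inhibitors of MEK, DOT1L, GSK3, the FGF receptor and Wnt signalling, with LY (bESC_LY, numbers 2 and 3) or without it (bESC_tifx, numbers 2 and 3). Nothing in the labels says whether the 2 numbers are separate lines or cultures, so the spread between them may be technical. In a library from a whole blastocyst or a culture, fewer cells that express a gene and less of its RNA per cell cannot be told apart.

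Reads on genes ran from 7905768 to 17343140 in the blastocysts and from 29055323 to 31230432 in the bESCs. In the first experiment 1 library was closer to the other group than to its own. Over the tested genes, DMSO replicate 3 had a Pearson correlation of 0.798 and 0.841 with the other DMSO blastocysts and of 0.875 to 0.902 with the LY10 blastocysts, and values without it stand beside the results below. DMSO replicate 2 had 0.756 to 0.805 with the LY10 blastocysts. In the second experiment the LY_DMSO replicates 1 and 2 had 0.909 with each other, and up to 0.944 and 0.91 with a blastocyst of another group. The cell2_LY pair had 0.901, and its replicate 2 had up to 0.933 with another group. In the bESCs, each library was more like the library of the other treatment with its own number (0.987 and 0.989) than like its own group (0.945 and 0.947). All 12 blastocysts held trophectoderm and epiblast markers, with the summed level of 8 epiblast markers at 413.5 to 573.0 FPKM (fragments per kilobase, scaled by the authors to library size) in DMSO and 601.2 to 916.0 in LY10. Summed levels of 6 fibroblast markers ran from 23.9 to 90.6 FPKM in DMSO and from 6.10 to 11.7 in LY10, with COL3A1 at 0 in 2 of the LY10 blastocysts. For 9 maternal oocyte markers the sums were 18.4 to 98.9 in DMSO and 12.8 to 22.1 in LY10, and for 8 cumulus markers 5.41 to 7.64 and 4.67 to 7.32. Most markers of both lists were detected. Of the 9 oocyte markers 5 to 6 were above 0 in a DMSO blastocyst and 6 to 8 in an LY10 blastocyst. Of the 8 cumulus markers it was 5 to 7 and 4 to 7. Among those not detected, the oocyte gene BMP15 was at 0 in DMSO replicates 2 and 3 and in LY10 replicate 1. The cumulus gene AMH was at 0 in every DMSO blastocyst and in LY10 replicates 2 and 3. The part of these markers in the differences described here was not tested. Over the 6 blastocysts of the second experiment the fibroblast sums ran from 9.72 to 17.6 FPKM, and the oocyte sums were 17.4 and 21.2 in LY_DMSO and 8.18 to 14.3 under LY. Their epiblast sums were 702.5 and 532.5 FPKM in LY_DMSO, 401.6 and 496.6 in cell16_LY, wholly below that control, and 538.9 and 413.5 in cell2_LY. The part of these markers was likewise not tested. The bESC libraries had 2117 to 2276 FPKM of the 6 epiblast markers in their table.

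CHAC1 had the widest spread of the 9 genes over blastocysts, as the ratio of its highest to its lowest level. It encodes a cytosolic enzyme that cleaves glutathione, and lies in the blastocyst annotation (coordinates as in assembly ARS-UCD2.0) on chromosome 10 from 36485787 to 36488158. In LY10 blastocysts its level was 9.47, 11.6 and 7.29 FPKM, and in DMSO blastocysts 3.84, 1.81 and 0.411 FPKM. Every LY10 blastocyst lay above every DMSO blastocyst. The log2 fold change, taken on normalized counts plus 1, was 2.63 with a standard error of 0.71, a 6.19-fold difference. Counts were low in the control, with 79, 29 and 6 reads, so much of this size rests on DMSO replicate 3, without which the log2 fold change was 1.79.

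CHAC1 lay the other way round in the second experiment. Its level was 16.6 and 18.2 FPKM in LY_DMSO, 1.26 and 2.19 FPKM in cell16_LY, and 5.83 and 0.431 FPKM in cell2_LY. Both LY groups lay wholly below their control, with log2 fold changes of -3.35 for cell16_LY and -3.38 for cell2_LY and a standard error of 0.99 for each. The cell2_LY pair rested on 122 and 10 reads and differed widely: its log2 fold change was -5.20 without cell2_LY replicate 1 and -1.57 without cell2_LY replicate 2. LY_DMSO was therefore the blastocyst group with the highest CHAC1, above LY10, although the DMSO control of the first experiment was among the lowest. The paralogue CHAC2, which cleaves glutathione with lower activity, showed neither pattern. It stood at 5.74 ± 1.495 FPKM (SD, n = 3) in LY10 and 8.42 ± 1.89 in DMSO (SD, n = 3), with log2 fold changes between -0.56 and 0.38 in all 5 comparisons and adjusted p of 0.347 to 1 from limma.

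By group mean in RPM (the reads-per-million scale, without division by gene length), the order of CHAC1 from high to low was bESC_LY (42.2 ± 57.1), LY_DMSO (26.1 ± 1.71), LY10 (14.2 ± 3.25), bESC_tifx (8.47 ± 10.1), cell2_LY (4.69 ± 5.72), DMSO (3.03 ± 2.59) and cell16_LY (2.59 ± 0.989), each with its SD. Of neighbours in this order, the step from LY_DMSO to LY10, 11.9 RPM, was the one that exceeded the larger of the 2 SDs. The tables were normalized separately, so levels set across them are side by side and were not tested.

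ATF4, the transcription factor at the centre of the response, lies on chromosome 5 from 110946624 to 110948719. Per length, by mean FPKM, it was the most abundant of the 9 in every blastocyst group, with DDIT3 close to it in DMSO. Its level was 365, 347 and 314 FPKM in LY10, against 184, 68.2 and 126 FPKM in DMSO. The groups did not overlap, and the log2 fold change was 1.55 (standard error 0.34), with 1.17 without DMSO replicate 2 at the low end. In LY_DMSO it was 371 and 287 FPKM, close to LY10. The cell16_LY blastocysts lay below at 123 and 180 FPKM (log2 fold change -1.13, standard error 0.38), while the cell2_LY blastocysts lay on either side of its range at 399 and 192 FPKM (-0.24, standard error 0.38, and 0.29 without cell2_LY replicate 2). The order of groups for ATF4 by mean RPM was LY10, LY_DMSO, cell2_LY, bESC_LY, cell16_LY, bESC_tifx and DMSO, and no step between neighbours exceeded the larger SD.

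Among the regulators downstream of ATF4, TRIB3 followed CHAC1 most closely. TRIB3 encodes a pseudokinase that restrains the response. It was measured at 5.11, 8.31 and 3.72 FPKM in LY10 and 4.01, 1.48 and 1.47 FPKM in DMSO, so the groups overlapped by 1 blastocyst of each, with a log2 fold change of 1.38 (standard error 0.48). The second experiment had 4.13 and 4.34 FPKM in LY_DMSO, 1.45 and 1.59 FPKM in cell16_LY (-1.47, standard error 0.56), and 5.35 and 1.51 FPKM in cell2_LY (-0.57, standard error 0.56). For cell2_LY the sign turned, to 0.34, without replicate 2 of that group.

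DDIT3, a factor tied to cell death when the response is prolonged, went against ATF4 in the first experiment. It stood at 29.4, 56.5 and 39.4 FPKM in LY10 and at 96.9, 166 and 99.5 FPKM in DMSO, so every LY10 blastocyst lay below every DMSO blastocyst. The log2 fold change was -1.54 (standard error 0.32). In the second experiment the level was 63.1 and 56.6 FPKM in LY_DMSO, within the spread of both LY groups (30.6 and 76.6 in cell16_LY, 82.3 and 47.1 in cell2_LY). The log2 fold changes were -0.30 and 0.06, each with a standard error of 0.45, and the sign of both turned on 1 blastocyst. For cell16_LY the value was -0.97 without cell16_LY replicate 2 and 0.36 without replicate 1, and for cell2_LY it was 0.46 without cell2_LY replicate 2, -0.34 without replicate 1 and -0.02 without LY_DMSO replicate 2. The gene lies on chromosome 5 from 55956303 to 55960510. In the blastocyst annotation its span holds a second gene model, LOC132345297, on the same strand, which had 0 reads in all 12 blastocysts, and its end overlaps by 54 bases that of MARS1, the methionyl-tRNA synthetase gene, on the other strand. The sources used here do not say that strand was used in counting, so reads of DDIT3 and of these neighbours may not be fully told apart. MARS1 itself had a log2 fold change of 1.81 (standard error 0.39) in LY10 against DMSO.

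ATF3 encodes an early-response partner of these factors. Its level was 1.85, 1.89 and 2.62 FPKM in LY10 and 4.49, 3.91 and 1.44 FPKM in DMSO, with overlap and a log2 fold change of -0.49 (standard error 0.44). In the second experiment it was at 3.10 and 2.44 FPKM in LY_DMSO, 3.12 and 4.76 FPKM in cell16_LY, and 5.68 and 7.13 FPKM in cell2_LY. Both LY groups lay above LY_DMSO without overlap, with log2 fold changes of 0.49 and 1.21 (standard error 0.32 for each).

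The 3 amino acid synthesis enzymes were higher in LY10 than in DMSO. PSAT1, the second enzyme of serine synthesis, was at 199, 184 and 221 FPKM in LY10 and at 42.9, 7.69 and 25.6 FPKM in DMSO. Its log2 fold change of 3.30 (standard error 0.53), 9.83-fold, was the largest of the 9, and was 2.60 without DMSO replicate 2. PHGDH, which makes the first committed step of serine synthesis, was at 74.8, 84.0 and 75.3 FPKM in LY10 and at 32.0, 7.51 and 14.7 FPKM in DMSO (2.35, standard error 0.46). ASNS, asparagine synthetase, was at 145, 175 and 125 FPKM in LY10 and at 74.5, 20.8 and 50.1 FPKM in DMSO (1.78, standard error 0.42). In none of the 3 did the groups overlap. DMSO replicate 2 was the lowest and DMSO replicate 1 the highest DMSO blastocyst for each of them.

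These enzymes were lower under LY in the second experiment or overlapped with the control. ASNS stood at 113 and 91.7 FPKM in LY_DMSO, against 33.2 and 75.5 FPKM in cell16_LY (log2 fold change -1.02) and 49.8 and 42.3 FPKM in cell2_LY (-1.15), with a standard error of 0.38 for each and no overlap in either. PHGDH was at 34.6 and 34.9 FPKM in LY_DMSO, 7.26 and 28.5 FPKM in cell16_LY (-1.27, standard error 0.59) and 40.1 and 21.0 FPKM in cell2_LY (-0.26, standard error 0.59). For PSAT1 the levels were 126 and 66.9 FPKM in LY_DMSO, 29.1 and 71.2 FPKM in cell16_LY (-1.01, standard error 0.52) and 94.1 and 43.1 FPKM in cell2_LY (-0.52, standard error 0.52), with overlap in both. The cell16_LY values depended on replicate 1 of that group, the lower of the pair for all 3 enzymes. Without it the log2 fold changes were -0.43 for ASNS, -0.29 for PHGDH and -0.36 for PSAT1. The cell2_LY values of PHGDH and PSAT1 were 0.21 and 0.04 without cell2_LY replicate 2.

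SESN2 encodes a leucine-binding protein that holds back mTORC1. Its DMSO blastocysts lay close together at 5.06, 5.29 and 5.28 FPKM, inside the range of LY10 at 6.18, 5.03 and 2.07 FPKM, with a log2 fold change of -0.38 (standard error 0.41). Its sign was positive, at 0.10, without LY10 replicate 3. In cell2_LY the level was 8.53 and 9.32 FPKM, above 3.49 and 5.79 FPKM in LY_DMSO (0.98, standard error 0.35) and above 4.06 and 3.37 FPKM in cell16_LY. SESN2 was the one member called in the comparison of the start stages, with a log2 fold change of -1.26 (standard error 0.35) for cell16_LY against cell2_LY.

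**Figure D1:**
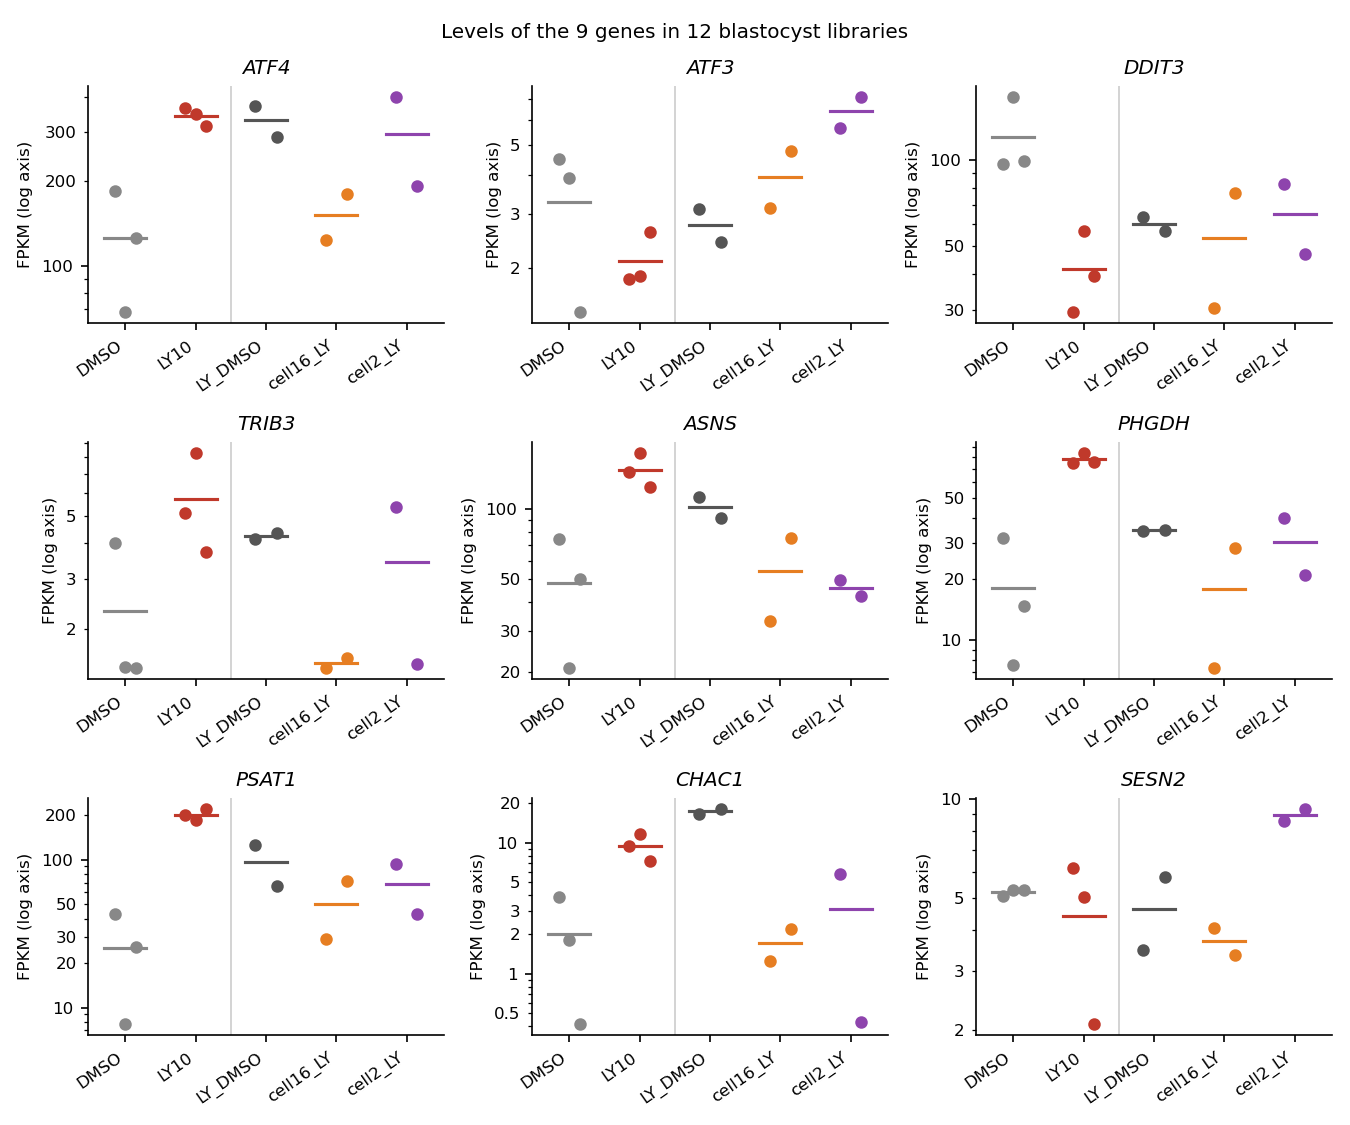
Level of each of the 9 genes in FPKM on log axes, with 1 point per blastocyst and a bar at the mean of each group. A grey line parts the first experiment (DMSO, LY10) from the second (LY_DMSO, cell16_LY, cell2_LY). CHAC1, ATF4, ASNS, PHGDH and PSAT1 lie higher in LY10 than in DMSO without overlap.

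As a count, a gene was called where its unadjusted p from limma was under 0.05 and its log2 fold change was above 1 or below -1. In LY10 against DMSO 6 members were called higher (CHAC1, ATF4, TRIB3, ASNS, PSAT1, PHGDH) and 1 lower (DDIT3). Of all 14249 tested genes 6.20% were called higher and 8.51% lower. For 5 members every LY10 blastocyst lay above every DMSO blastocyst, and for 1 every one lay below, against 13.8% and 14.4% of all genes. The median log2 fold change was 1.55 over the 9 genes and -0.05 over all tested genes. Without DMSO replicate 3 the count was 5 higher and 1 lower, with TRIB3 (log2 fold change 1.14) the one that was lost. Without that blastocyst the log2 fold changes were 1.61 for ATF4, -1.65 for DDIT3, 1.90 for ASNS, 3.46 for PSAT1, 2.32 for PHGDH, -0.9998 for ATF3 and -0.37 for SESN2. The same count of 5 and 1 stood without DMSO replicate 2 and without LY10 replicate 2, again with TRIB3 lost.

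In cell16_LY against LY_DMSO 0 members were called higher and 4 lower (CHAC1, ATF4, TRIB3, ASNS), where 3.25% of the 14529 tested genes were called higher and 1.97% lower. Groups did not overlap for 1 member higher and 5 lower, against 20.9% and 22.0% of all genes, and the median of the 9 was -1.02. The count of 4 became 1, CHAC1, without LY_DMSO replicate 1 and without cell16_LY replicate 1. Without cell16_LY replicate 2 it was 5, with PHGDH and PSAT1 added and TRIB3 lost. In cell2_LY against LY_DMSO 1 member was called higher (ATF3) and 2 lower (CHAC1, ASNS), with 8.71% and 8.34% of all genes called. Groups did not overlap for 2 members higher and 2 lower, where 26.9% of all genes were wholly higher and 26.9% wholly lower, and the median of the 9 was -0.26. ASNS was no longer called, which left CHAC1 as the 1 lower member, without LY_DMSO replicate 1 and without cell2_LY replicate 2. SESN2 was called as a second higher member without LY_DMSO replicate 2 and without cell2_LY replicate 1, and TRIB3 as an added lower one without the latter. These 2 comparisons share their control blastocysts.

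In cell16_LY against cell2_LY, 0 members were called higher and 1 lower, against 5.58% and 5.77% of all genes. No member was wholly higher and 3 were wholly lower (SESN2, ATF4, ATF3), against 28.2% and 26.3% of all genes. The count of 1 lower became 4 without cell16_LY replicate 2 and without cell2_LY replicate 2. CHAC1 differed by 0.03 on the log2 scale with a standard error of 0.99, and turned from -1.78 without cell2_LY replicate 2 to 1.85 without cell2_LY replicate 1, where it was the 1 member called higher. Since the contrasts were known when the list was made, nothing is read from these counts.

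**Figure D2:**
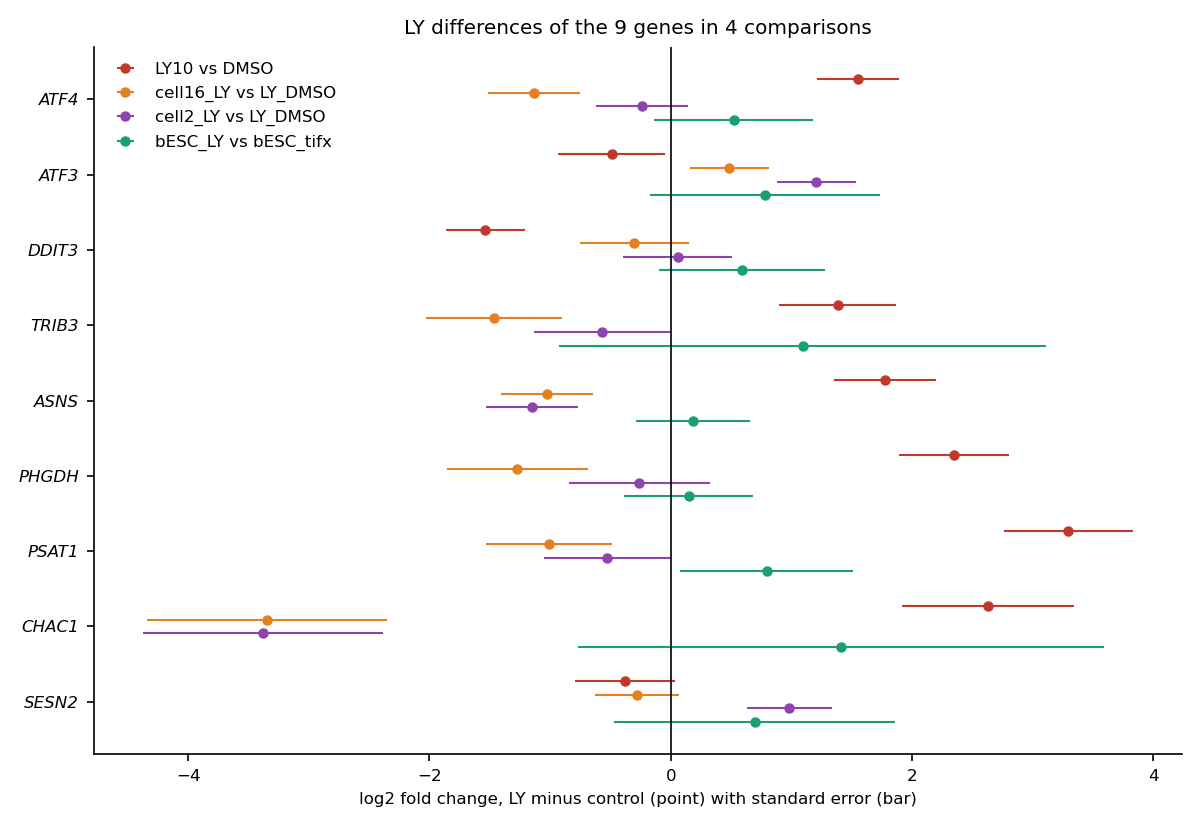
Log2 fold change of LY against its control (points) with its standard error (bars) for the 9 genes in 4 comparisons, by colour. CHAC1 lies at 2.63 in LY10 and near -3.4 in both LY groups of the second experiment, and the bESC bars are the longest for CHAC1 and TRIB3.

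LY_DMSO lay above DMSO without overlap for 6 members, below for DDIT3, and overlapped for ATF3 and SESN2. Of the 13019 genes tested in both tables, 20.8% lay wholly above and 14.1% wholly below in the same way. Being wholly higher in LY10 than in DMSO and wholly lower in cell16_LY or cell2_LY than in LY_DMSO held for 4 members (CHAC1, ATF4, ASNS, PHGDH) and for 8.32% of these genes. The ratio of the mean FPKM of LY_DMSO to that of DMSO was 8.61 for CHAC1, 3.79 for PSAT1, 2.61 for ATF4, 2.11 for ASNS, 1.92 for PHGDH, 1.83 for TRIB3 and 0.495 for DDIT3. Gene lengths are the same in both tables, but each was normalized on its own, and the experiment and whatever differed between the 2 cultures cannot be told apart.

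Over the 12 blastocysts, with each table centred on its own mean, the genes whose pattern was most like that of CHAC1 were RAB30 (Pearson r = 0.965), ARF5 (0.959), RIOX1 (0.908), LOC785630 (0.907) and LOC132345817 (0.903), out of 9325 genes with a mean of at least 50 normalized counts in both tables. RAB30 and ARF5 encode small GTPases of the Golgi. RAB30 stood at 2.39, 1.27 and 1.09 FPKM in DMSO, 2.82, 3.08 and 2.54 in LY10, 3.81 and 3.14 in LY_DMSO, 1.55 and 1.85 in cell16_LY, and 2.37 and 0.784 in cell2_LY. Within each experiment it was thus lowest in the blastocyst where CHAC1 was lowest, DMSO replicate 3 and cell2_LY replicate 2. Among the other 8 members TRIB3 came first (0.868, rank 11), followed by ATF4 (0.737), ASNS (0.726), PHGDH (0.702) and PSAT1 (0.667), while DDIT3, SESN2 and ATF3 had values of -0.22, -0.26 and -0.30. ATF4 itself ran closest to the serine enzymes, with 0.955 for PHGDH and 0.943 for PSAT1. These points share group differences, control blastocysts and depth, and the values are a description.

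The wider pathway was taken from 2 lists that hold none of the 9 genes, 17 ATF4 regulators and 30 other ATF4 targets. In LY10 against DMSO 40 of the 47 were tested, 8 were called higher and 1 lower, and the median log2 fold change was 0.51. Over all tested genes 6.20% were called higher and 8.51% lower. Of the regulators 2 were called higher, EIF2B4 (24.6 ± 4.22 against 11.3 ± 2.63 FPKM) and EIF2B1 (68.8 ± 6.42 against 35.6 ± 18.8), with log2 fold changes of 1.13 and 1.08. Both are subunits of the guanine nucleotide exchange factor that eIF2 phosphorylation blocks, and both are named here after their values were seen. Their adjusted p from limma was 0.0861 and 0.131. The other subunits, EIF2B2 (0.275), EIF2B3 (0.224) and EIF2B5 (-0.248), overlapped between the groups and were not called. The kinase EIF2AK2, also called PKR, was lower at 0.132 ± 0.0282 against 0.622 ± 0.440 FPKM (-1.87, adjusted p = 0.155 from limma), a call lost without DMSO replicate 1 (-1.72), DMSO replicate 3 (-1.33) or LY10 replicate 3 (-1.69). The gene was low in both groups, at 0.0999 to 0.15 FPKM in LY10 and 0.184 to 1.06 in DMSO. Its call was also lost under quantile normalization (-1.38) and voom weights (-1.84). All SDs here are over 3 blastocysts. Of the other targets, ALDH1L2 of mitochondrial folate metabolism (25.9 ± 7.18 against 6.18 ± 1.84 FPKM), the amino acid transporter subunit SLC3A2 (68.1 ± 39.7 against 16.1 ± 4.56) and PCK2, the mitochondrial PEP carboxykinase (8.91 ± 3.20 against 1.17 ± 1.48), led the 6 called higher, at 2.07, 1.97 and 3.60. Their adjusted p from limma was 0.0711, 0.0783 and 0.0786, so none passed after adjustment over all genes. Without DMSO replicate 2 the count of pathway genes called higher was 5, and without DMSO replicate 3 it was 12. Without the latter ALDH1L2 stood at 2.22, SLC3A2 at 2.02 and PCK2 at 3.20.

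The counts of the other lists in LY10 against DMSO stand beside the same 6.20% higher and 8.51% lower over all genes. Serine and one-carbon genes gave 4 called higher and 1 lower of 14 tested, led by ALDH1L2 and, at the other end, MTHFD2L (2.15 ± 1.56 against 7.06 ± 2.74 FPKM, log2 fold change -2.02, and -1.19 without LY10 replicate 2). Around CHAC1 in the glutathione cycle, GCLC, the catalytic subunit of the rate-limiting enzyme of glutathione synthesis, was lower (18 ± 4.73 against 42.8 ± 15.03 FPKM, -1.21) and the dipeptidase CNDP2, which splits the product of CHAC1, was higher (24.7 ± 1.59 against 10.9 ± 4.69, 1.29). The call of CNDP2 was lost without DMSO replicate 2 (0.89). Of 10 tested genes of that list these were the only ones called, and adjusted p from limma was 0.0959 and 0.0973. The 19 genes of the unfolded protein response in the endoplasmic reticulum had a median of 0.08, with the sensor ERN1 called higher (0.613 ± 0.193 against 0.228 ± 0.0661 FPKM, 1.37) and the secreted factor MANF called lower (335 ± 36.2 against 742 ± 187, -1.12). MANF was not called without DMSO replicate 3 (-0.94), and ERN1 was not called without DMSO replicate 1 (1.19), LY10 replicate 1 (1.22) or LY10 replicate 3 (1.22). Relatives of the members gave 0 higher and 3 lower of 21 tested, with SESN1, a sestrin induced by p53, at -1.04, a call lost without DMSO replicate 3 (-0.67), LY10 replicate 2 (-1.03) or LY10 replicate 3 (-0.79). By limma 2 of all 14249 genes had an adjusted p under 0.05, and 3267 (22.9%) an unadjusted one.

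**Figure D3:**
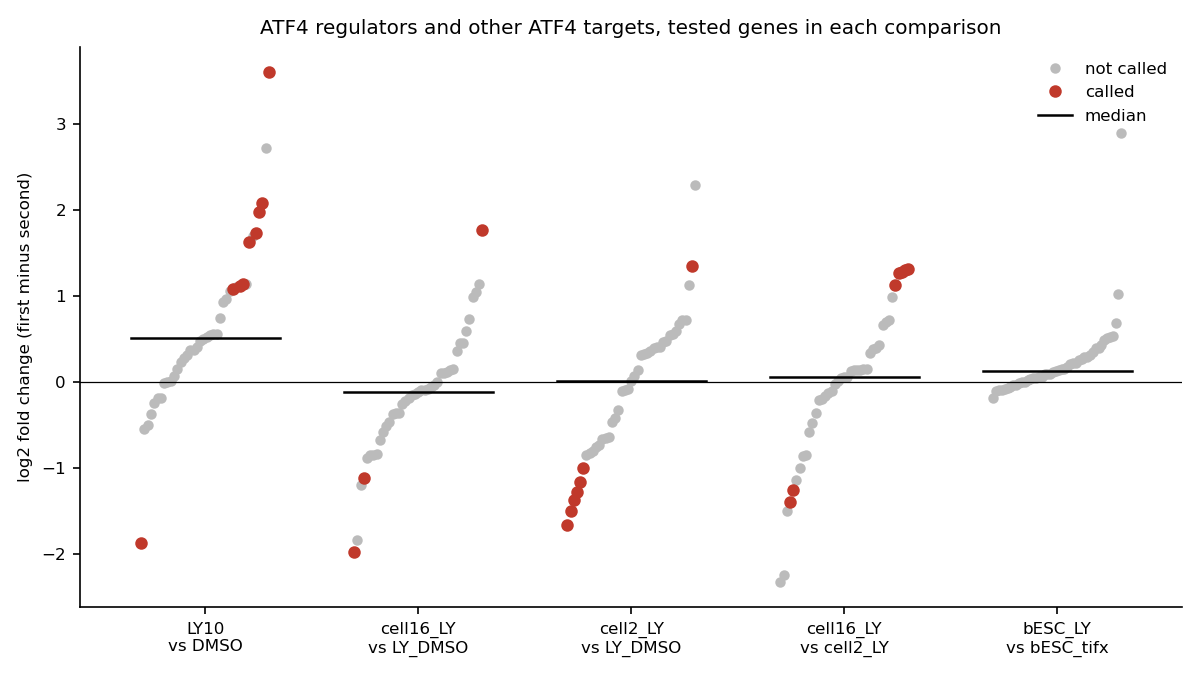
Log2 fold change of each tested gene of the 2 ATF4 lists in 5 comparisons, sorted within a comparison, with called genes in red, the others in grey and a line at the median. LY10 against DMSO has the highest median, 0.51, and 8 of 40 genes called higher, beside 6.20% of all genes, and bESC_LY against bESC_tifx has none called.

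For cell16_LY against LY_DMSO, in the second blastocyst experiment, 41 genes of the same lists were tested, 1 was called higher and 2 lower, with a median of -0.12 (-0.10 for the regulators and -0.32 for the other targets, beside -0.01 for all genes). Over all tested genes 3.25% were called higher and 1.97% lower. The kinase EIF2AK2 was higher here (1.31 ± 0.170 against 0.379 ± 0.0148 FPKM, SD, n = 2, log2 fold change 1.77), and the amino acid transporter genes SLC3A2 (54.9 ± 23.4 against 117 ± 34.4, -1.12) and SLC7A1 (0.267 ± 0.221 against 0.876 ± 0.00599, -1.98) were lower. Adjusted p from limma was 0.397, 0.557 and 0.620. SLC3A2 was not called without LY_DMSO replicate 2 (-0.82) or cell16_LY replicate 1 (-0.67), nor SLC7A1 without either LY_DMSO blastocyst (-1.97 and -1.98) or without cell16_LY replicate 1 (-1.04). Without cell16_LY replicate 2 there were 6 lower, without cell16_LY replicate 1 there were 0, there was 1 without LY_DMSO replicate 2, and 5 were higher without LY_DMSO replicate 1. The list with the highest median was that of the endoplasmic reticulum chaperones, at 0.77, with 5 of 19 called higher and 0 lower. LY_DMSO replicate 2 was the lowest of the 6 blastocysts for 14 of these 19 genes. Without it the count was 0 and the median 0.16, and without LY_DMSO replicate 1 they were 12 and 1.33. Leaving out any 1 of the other blastocysts gave a count of 2 or 3. The leading gene of the list was the disulfide isomerase PDIA4 (45.8 ± 5.58 against 18.3 ± 12.01 FPKM, 1.49, adjusted p = 0.550 from limma), which was not called without LY_DMSO replicate 2 (0.77), the control with the lower level. Of the relatives, JUN was called higher at 1.06, a call lost without either LY_DMSO blastocyst (0.92 and 1.21) or without cell16_LY replicate 2 (0.73). It was also lost with reads on genes as library size (1.08), voom weights (1.05), log2(FPKM + 1) (0.74), the replicate block and a fit of the 2 groups alone. The serine and the glutathione lists had 0 called in either direction, by the same limma fit in which 0 of all genes had an adjusted p under 0.05 and 1107 an unadjusted one.

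In cell2_LY against LY_DMSO 1 of the 41 pathway genes was called higher and 6 lower, with a median of 0.01, where 8.71% of all tested genes were called higher and 8.34% lower. The lower ones included the eIF2B subunit EIF2B3 (20.5 ± 8.84 against 50.8 ± 0.656 FPKM, log2 fold change -1.38), the transporter subunit SLC3A2 (40.3 ± 0.541 against 117 ± 34.4, -1.5) and the cysteine-forming enzyme CTH (33.9 ± 4.96 against 68.0 ± 9.32, -1.01), with adjusted p of 0.0809, 0.0782 and 0.0863 from limma. DELE1, which relays mitochondrial stress to the eIF2 kinases, was higher at 1.35, and leaving out LY_DMSO replicate 1 gave 3 genes called higher, while leaving out LY_DMSO replicate 2 or cell2_LY replicate 1 gave 0. SLC3A2 kept its call in all 16 alternative settings. EIF2B3 lost it without cell2_LY replicate 1 (-0.92), CTH without LY_DMSO replicate 1 (-0.87) or cell2_LY replicate 2 (-0.86), and DELE1 without LY_DMSO replicate 2 (0.74), cell2_LY replicate 1 (1.23) or cell2_LY replicate 2 (1.46). Of the other lists, XBP1, a transcription factor of the unfolded protein response, was higher at 1.69, which became 0.57 without LY_DMSO replicate 2 and 2.80 without LY_DMSO replicate 1. It was also not called without cell2_LY replicate 1 (1.54) or cell2_LY replicate 2 (1.84). The modifier subunit of glutathione synthesis, GCLM, was higher (17.5 ± 1.59 against 7.44 ± 0.602 FPKM, 1.23), the cytosolic folate enzyme MTHFD1 was lower (5.61 ± 0.582 against 13.7 ± 0.571, -1.29), JUN was higher (8.50 ± 0.537 against 1.46 ± 0.217, 2.52) and CEBPZ was lower (37.9 ± 7.59 against 90.4 ± 2.90, -1.27). The last 4 named had adjusted p between 0.0711 and 0.0833 from limma.

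Between the start stages, 5 of 41 pathway genes were called higher and 2 lower in cell16_LY than in cell2_LY, where 5.58% of all tested genes were called higher and 5.77% lower. OMA1, the mitochondrial protease that cleaves DELE1, was at 5.30 ± 0.358 against 2.23 ± 0.586 FPKM (log2 fold change 1.27), EIF2B3 at 47.4 ± 0.256 against 20.5 ± 8.84 (1.28) and EIF2AK2 at 1.31 ± 0.170 against 0.523 ± 0.00201 (1.31). The light chain SLC7A5 (5.95 ± 2.31 against 13.8 ± 1.66 FPKM, -1.26) and the factor JDP2 (1.502 ± 0.454 against 4.04 ± 1.34, -1.40) were lower, and adjusted p from limma was 0.191 to 0.218 for these 5. Without cell16_LY replicate 1 the counts were 2 higher and 1 lower, with EIF2AK2 (1.18) and SLC7A5 (-0.85) among the calls lost. Without cell2_LY replicate 1 they were 3 higher and 1 lower, with OMA1 (0.999), EIF2B3 (0.83) and JDP2 (-1.06) lost, and JDP2 was also lost without cell16_LY replicate 2 (-1.10). There were 5 lower without cell16_LY replicate 2, and 5 without cell2_LY replicate 2. In the other lists DNAJB9 (1.42) and ASNSD1 (1.24) led those higher, and CEBPD (-1.49) and OPLAH (-1.43) those lower. Of these, CEBPD kept its call in every setting, and the other 3 lost it without cell2_LY replicate 1 (0.92, 0.86 and -1.33 for DNAJB9, ASNSD1 and OPLAH). Without cell16_LY replicate 1 DNAJB9 (1.17) and OPLAH (-0.85) lost it too, as did OPLAH without cell2_LY replicate 2 (-1.54).

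The bESCs gave a different picture of the same genes. Because gene lengths in their annotation differ from those of the blastocyst tables, levels are in RPM here. PHGDH was at 336 and 180 RPM in bESC_tifx numbers 2 and 3 and 425 and 175 in bESC_LY. CHAC1 was at 15.6 and 1.35 in bESC_tifx and at 82.5 and 1.82 in bESC_LY. The number 2 libraries were thus high, above all with LY, and both number 3 libraries were low. ATF4 was at 234 and 147 in bESC_tifx and at 502 and 141 in bESC_LY, and TRIB3 at 6.21 and 0.753 against 28.5 and 0.752. All 9 log2 fold changes of bESC_LY against bESC_tifx were above 0, from 0.15 for PHGDH (standard error 0.54) to 1.41 for CHAC1 (standard error 2.18). The groups overlapped for every member. By limma 0 members were called higher and 0 lower, where 0.0375% of the 16012 tested genes were called higher and 0.0375% lower, and 6.83% were wholly higher and 7.36% wholly lower. This fit had no term for the number, so the difference between numbers 2 and 3 entered its spread and limited what could be called. These counts therefore do not show that LY left the members unchanged. A fit with the number as a block is given at the end. Of all genes 16 had an unadjusted p under 0.05 and 0 an adjusted one.

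For all 9 members both number 2 libraries lay above both number 3 libraries. Between the cultures without LY, bESC_tifx number 2 lay above number 3 for all 9 members, by 0.67 (ATF4) to 3.50 (CHAC1) on the log2 scale, with 5 members above 1. Of all tested genes 50.3% lay above 0 and 6.31% above 1 in that difference. With number 2, LY minus tifx was above 0 for all 9 and above 1 for 6, at 2.40 for CHAC1, 2.19 for TRIB3, 1.56 for ATF3, 1.36 for PSAT1, 1.21 for SESN2 and 1.10 for ATF4, where 48.4% of all genes lay above 0 and 2.0% above 1. With number 3 it was above 0 for 6 and above 1 for 0 members, from -0.06 (ATF4) to 0.42 (CHAC1), where 48.7% of all genes lay above 0 and 1.73% above 1. The fitted median of the 9, 0.70, was 1.77 without bESC_LY number 3 and -0.49 without bESC_LY number 2. Each of these fits set 1 LY library against both tifx libraries, so the difference between numbers entered the value. For these libraries the summed trophectoderm markers were at 296 and 256 FPKM in number 2 and at 113 and 98.6 in number 3, and the cumulus markers at 25.2 and 22.8 against 69.2 and 62.6. The trophectoderm genes IFNT2 and PAG2 were at 0 in all 4, where 7 to 8 of the 10 trophectoderm markers were above 0. Of the 8 cumulus markers 5 to 6 were above 0, and the cumulus genes CYP19A1 and FSHR were at 0 in all 4. The part of these markers was not tested. Of the pathway lists, 0 of 46 tested genes were called in either direction by limma, and 0 had an unadjusted p under 0.05. The highest was GDF15, a secreted stress factor and ATF4 target, at 0.702 ± 0.701 against 0.0832 ± 0.118 FPKM (SD, n = 2), 2.89 higher on the log2 scale (standard error 1.46, adjusted p = 1 by limma). Leaving out 1 bESC library leaves a group of 1, so the calls of such fits are not read here.

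**Figure D4:**
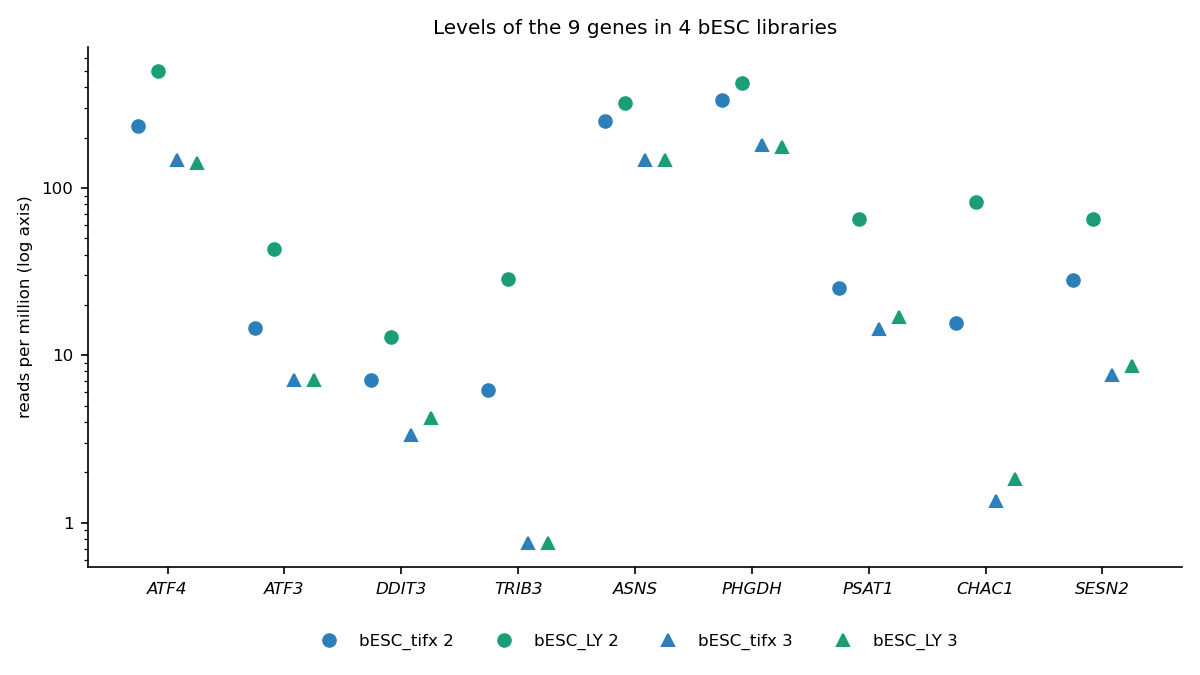
Level of the 9 genes in the 4 bESC libraries, in RPM on a log axis, with circles for number 2, triangles for number 3, blue for bESC_tifx and green for bESC_LY. For every gene the circles lie above the triangles, the green circle is highest, and the triangles of both treatments lie close together.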

How the data were processed

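RNA was sequenced from 12 single bovine blastocysts and 4 bESC cultures. The deposited values are FPKM in 3 tables, which the authors made from featureCounts 1.5.0-p3 reads. The labels name HISAT2 2.0.5 and StringTie 1.3.3b, the methods also name STAR for the embryos, and a genome build is not given in the sources used here. Gene coordinates in the blastocyst tables matched ARS-UCD2.0. Columns of the authors' own comparisons (fold changes and p-values, with DESeq2 1.20.0) were not used. No sequences are shown, as none was analysed here.

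FPKM times gene length gave whole reads for 100% of values within 0.02. A normalized count was those reads divided by the library size the FPKM imply, scaled to the geometric mean of the table's library sizes. Genes with a mean of at least 10 were fitted on log2(normalized count + 1) with limma 3.58.1 (lmFit, eBayes with trend) in R 4.3.3, separately per table, with the 3 groups of the second experiment in 1 fit and Benjamini-Hochberg adjustment over all genes. A fold change on this scale understates that of low genes. Tables were read with Python 3.11.15, pandas 2.3.3 and numpy 2.4.6. Rows without a gene name numbered 2675, 1145 and 696 in the first and second blastocyst tables and the bESC table. A floor of 3 reads was at most 0.384 in blastocysts and 0.104 in bESCs on the reads-per-million scale, and covers counting error only. The fits were tested on simulated data: of 200 genes changed by 2 on the log2 scale 99.5% to 100% were called in each comparison. The simulation gave every gene the same small spread, changed only well-covered genes and held no difference between bESC numbers. In the data the residual SD of CHAC1 was 1.12 on the log2 scale for LY10 against DMSO and 3.25 in the bESCs. The recovery therefore does not hold for such genes, and a gene not called may still differ.

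The members and lists were chosen with earlier results of these data known. From the 2 ATF4 lists the 3 called genes of smallest p in each direction were named per comparison, from each other list 1, and CHAC2 always, with the 5 genes most like CHAC1. One gene that this rule names is not reported here. Alternatives were pseudocounts of 0.5 and 5, no filter or a mean of at least 50, quantile normalization, reads on genes as library size, voom weights, log2(FPKM + 1) where FPKM averaged 0.5 or more, the replicate block, a fit of the 2 groups alone and each library left out. Groups held 2 or 3 libraries, and p-values measure the spread between these.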

Additional observations from a re-analysis of the deposited data

Results flagged for a closer look

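For 4 of the 9 genes, every LY10 blastocyst lay above every DMSO blastocyst while every blastocyst of an LY group of the second experiment lay below every LY_DMSO blastocyst. The same held for 8.32% of the 13019 genes tested in both experiments, and the members were chosen with these differences known. CHAC1 had a log2 fold change of 2.631 in LY10 against DMSO, and of -3.349 in cell16_LY and -3.382 in cell2_LY against LY_DMSO. ATF4 stood at 1.553 in LY10 and -1.133 in cell16_LY. ASNS stood at 1.78 in LY10, -1.025 in cell16_LY and -1.149 in cell2_LY. PHGDH stood at 2.351 in LY10 and -1.271 in cell16_LY. The difference between the experiments was not tested, since their tables were normalized separately, and both LY groups of the second experiment share the same 2 controls.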

How the results depend on the processing

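Each group held 2 or 3 libraries, so a single blastocyst or culture could decide a call. Over the alternatives, 656 of the member fold changes moved by less than 1 SD of the replicates, 28 moved by more, and no called one changed sign. Where replicates differ widely this SD is large, so the count of 656 does not show that the values were stable. In the bESCs the residual SD of CHAC1 was 3.25. Its log2 fold change went from 1.411 to -1.329 without bESC_LY number 2, a move smaller than that SD. Every member was negative in that fit, and some uncalled members changed sign in blastocysts too. Of the calls of other named genes 465 stood and 65 were lost. Besides those lost with a left-out library, log2(FPKM + 1) lost SESN1 in LY10, EIF2AK2, SLC7A1 and JUN in cell16_LY and CTH in cell2_LY. Between start stages it lost OMA1, EIF2AK2, JDP2 and OPLAH. Quantile normalization lost EIF2AK2 in LY10, CTH and CEBPZ in cell2_LY and OPLAH between start stages. Library sizes from the reads on genes lost CTH in cell2_LY. Counts of pathway genes were within 1.5 times in 118 cases and moved in 34. edgeR and DESeq2 were not run, because the files hold FPKM.

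The 1 pathway gene called lower in LY10 against DMSO became 2 with no filter, and 0 with a mean of at least 50, quantile normalization, voom weights or log2(FPKM + 1). With log2(FPKM + 1), cell16_LY against LY_DMSO had 0 higher and 1 lower, and cell16_LY against cell2_LY had 3 higher and 1 lower. In cell2_LY against LY_DMSO, 2 were higher with a pseudocount of 5, no filter or library sizes from the reads on genes, and the last of these gave 4 lower in cell16_LY against cell2_LY. Leaving out 1 library gave 5 to 12 higher and 0 to 1 lower in LY10, 1 to 5 and 0 to 6 in cell16_LY, 0 to 3 and 5 to 6 in cell2_LY, 2 to 7 and 1 to 5 between start stages, and 0 to 7 higher and 0 lower in bESCs. Among the members, the cell16_LY call of ASNS was lost under quantile normalization and PHGDH was added under voom weights. The cell2_LY call of ATF3 was lost with log2(FPKM + 1). The cell2_LY call of ASNS was lost under quantile normalization (-0.758) and with library sizes from the reads on genes. The latter setting also added SESN2 as higher in cell2_LY. Both settings added ATF4 as lower in cell16_LY against cell2_LY. The counts of endoplasmic reticulum chaperones without 1 library were an alternative chosen after seeing the data. The cause of these shifts was not tested.

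The replicate numbers did not pair the blastocysts: same-numbered libraries deviated from their group means with correlations of -0.117, 0.168 and -0.0997 in the first experiment and between -0.232 and 0.121 in the second. In the bESCs the correlation was 0.789, over only 2 pairs, so that the libraries share a number and no stated origin. The replicate block gave 9 higher and 1 lower in LY10, 2 higher and 2 lower in cell16_LY, and 1 higher and 0 lower in bESCs, where CHAC1 and TRIB3 were also called higher. The share of all genes called with the block is not given here, so nothing is read from these calls.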
